A study of Mus musculus with 16 samples.

Results

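The p53 target set comprised 10 genes: Trp53, which encodes p53 itself, and 9 genes that p53 is known to switch on, Cdkn1a, Mdm2, Ccng1, Btg2, Trp53inp1, Bax, Phlda3, Sesn2 and Eda2r. They were chosen by name as textbook members of the pathway, with earlier results of these data known. All 10 were among the 15156 genes of the deposited table. Whole-pancreas RNA was sequenced from 16 mice, 4 in each of 4 genotype groups that the study calls biological replicates. DMC mice carried floxed alleles of both Daxx and Men1 with a Pdx1-Cre transgene. MC mice carried floxed Men1 with Pdx1-Cre, DC mice floxed Daxx with Pdx1-Cre, and WT mice were wild type, with no Cre transgene named for them. Every animal, WT included, was 6 to 10 weeks old at treatment and received caerulein at 50 ug/kg, as 4 hourly injections on 3 days a week for 3 weeks. The pancreas was taken 5 days after the last dose. Pdx1-Cre acts in the pancreatic epithelial lineage, so fibroblasts, blood vessels and immune cells in the tissue keep both genes. Strain and sex are not stated, and pancreas without caerulein was not analysed here.

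p53 is a transcription factor that is stabilised when DNA is damaged or a cell is otherwise stressed. It then binds response elements and raises a set of genes that stop the cell cycle, repair DNA or kill the cell. Its activity is set mainly through the stability of the protein: Mdm2, itself a target, tags p53 for degradation and closes a negative feedback loop. Daxx is a histone chaperone that has also been reported to bind Mdm2, and Men1 encodes menin, a tumour suppressor of endocrine tissue that works with histone methyltransferases. Caerulein is a cholecystokinin analogue that makes acinar cells digest and injure themselves.

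Levels are given as normalized counts, which are gene read counts divided by a size factor for each library. Libraries held 13481063 to 23728309 reads in genes. Markers of acinar cells, the enzyme-secreting cells of the pancreas, were all detected and had a mean log2 level of 16.8 to 18.5 in every library. Men1 had 157 to 178 normalized counts in DMC, 116 to 147 in MC, 397 to 541 in DC and 331 to 459 in WT libraries. It fell by 1.12 on the log2 scale in DMC against WT (limma adjusted p = 0.000713) and by 1.47 in MC against WT (adjusted p = 6.16e-05). Daxx had 160 to 225 in DMC and 212 to 245 in DC libraries, against 195 to 346 in WT libraries. Its change did not pass in DMC (log2 change -0.51, limma adjusted p = 0.193) or in DC (log2 change -0.20, adjusted p = 0.683). The Men1 level thus separated the groups with floxed Men1 from the others, and the Daxx level did not separate the groups with floxed Daxx from WT. Which exons were floxed is not given in the sources used here. In bulk tissue, fewer cells of a type and less RNA per cell cannot be told apart.

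The DNA that p53 reads is a pair of similar decamers, and the 250 bases before the start of 9 of the 10 genes could be searched for it in RefSeq sequence on GRCm38.p6 (Trp53inp1 had no entry). The consensus p53 decamer, which reads the same way on both strands, was present between 250 bases before and 50 bases after a start in 5 of the 9 genes (55.6%), against 9.55% of 27025 genes with such a window. A pair was counted where decamers adjoined with no spacer, each kept its central C and G, and at most 2 of 20 bases were mismatched. Such a pair was present in Cdkn1a and Ccng1, that is in 22.2% of the 9 genes against 0.392% of all genes. The decamer matches include those inside a pair. Both genes with a pair are shown, with Mdm2 as the gene of the feedback loop. Capitals mark the decamers and pairs, which are letter matches and not measured binding. Sequence outside these windows was not searched, so a gene without a match may hold a site elsewhere. Likewise, a match is not shown to be the site that p53 uses.
Cdkn1a, chr17:29090729-29090978, plus strand: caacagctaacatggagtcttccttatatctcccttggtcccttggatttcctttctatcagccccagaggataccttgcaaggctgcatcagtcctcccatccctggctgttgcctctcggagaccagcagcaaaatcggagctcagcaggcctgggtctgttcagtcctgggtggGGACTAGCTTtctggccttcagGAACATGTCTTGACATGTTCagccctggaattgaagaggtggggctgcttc
Ccng1, chr11:40755287-40755536, minus strand: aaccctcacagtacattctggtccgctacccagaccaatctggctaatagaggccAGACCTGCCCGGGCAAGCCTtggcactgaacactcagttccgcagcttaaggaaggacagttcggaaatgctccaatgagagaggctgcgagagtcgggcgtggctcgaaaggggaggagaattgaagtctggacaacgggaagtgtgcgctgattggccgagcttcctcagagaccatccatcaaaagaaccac
Mdm2, chr10:117710759-117711008, minus strand: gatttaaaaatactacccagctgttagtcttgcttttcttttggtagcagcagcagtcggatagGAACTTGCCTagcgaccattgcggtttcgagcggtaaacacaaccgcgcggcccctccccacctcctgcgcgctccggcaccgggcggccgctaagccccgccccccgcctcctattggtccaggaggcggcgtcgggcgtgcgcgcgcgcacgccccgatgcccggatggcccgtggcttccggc
The pair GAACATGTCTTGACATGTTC began 51 bases before the upstream Cdkn1a start, with a further decamer, GGACTAGCTT, 73 bases before it. The Cdkn1a window at a second annotated start held no match. In Ccng1 the pair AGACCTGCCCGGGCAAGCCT began 195 bases before the start, and in Mdm2 the decamer GAACTTGCCT began 186 bases before it. Trp53 held GGACTTGCCC 75 bases before its start and Bax held AGGCAAGCTT 201 bases before its start, while the windows of Btg2, Phlda3, Sesn2 and Eda2r held no match to these letters.

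None of the 10 genes passed the test in any of the 9 comparisons that the 4 groups allow. The test was a limma fit of the log2 of the normalized count plus 1 over all 16 libraries and 14220 genes, and a gene passed at a Benjamini-Hochberg adjusted p under 0.05 over all genes tested. In DMC against WT 0 of 10 passed, where 0.788% of all genes did. In MC against WT 0 of 10 passed (0.781% of genes), and in DC against WT 0 of 10 (0.0211% of genes). In DMC against MC 0 of 10 passed, where 0.00703% of all genes did. In DMC against DC 0 of 10 passed (0.534% of genes), and in MC against DC 0 of 10 (1.37% of genes). For the average of MC and DMC against the average of WT and DC, called the Men1 effect below, 0 of 10 passed against 3.02% of all genes. For the average of DC and DMC against that of WT and MC, the Daxx effect, 0 of 10 passed against 0.0703%, and for the interaction of both losses 0 of 10 against 0% of all genes. At these shares, 10 genes would hold no called gene or close to none in each comparison, so the counts do not set the p53 genes apart from the rest of the table. edgeR and DESeq2, each run on recovered reads, also passed 0 of the 10 in all 9 comparisons.

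At an unadjusted limma p under 0.05, the members numbered 2 in DMC against WT (12.5% of all genes), 1 in MC against WT (12.7%) and 0 in DC against WT (11.7%). They numbered 1 in DMC against MC (5.57%), 1 in DMC against DC (13.2%) and 0 in MC against DC (13.7%). The Men1 effect held 1 (16.6% of all genes), the Daxx effect 1 (9.23%) and the interaction 1 (8.13%). The genes were Phlda3 in DMC against WT, in MC against WT and in the Men1 effect. They were Eda2r in DMC against WT, in DMC against MC and in the Daxx effect, and Ccng1 in DMC against DC and in the interaction.

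A call missed at this sample size leaves a range of changes possible, and the 95% intervals give that range. In the 6 comparisons between pairs of groups, 52 of the 60 intervals for single genes lay within a 2-fold change in either direction, and 8 reached 2-fold. The 8 were Phlda3 in DMC against WT, MC against WT and DMC against DC, Eda2r in DMC against WT and DMC against MC, and Trp53inp1 in MC against WT, DMC against MC and MC against DC. The median log2 change over the 10 genes was 0.15 in DMC, -0.04 in MC and 0.09 in DC against WT, and the median over all genes was -0.02 in each. It was 0.12 in DMC against MC, beside 0.01 over all genes. There all 10 point estimates were above 0, as were 51.1% of those of all genes, and 1 of the 10 intervals, that of Eda2r, excluded no change. The estimates of Trp53, Btg2, Bax and Sesn2 in that comparison went below 0 under at least 1 alternative setting. It was 0.04 in DMC against DC and -0.07 in MC against DC.

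**Figure D1:**
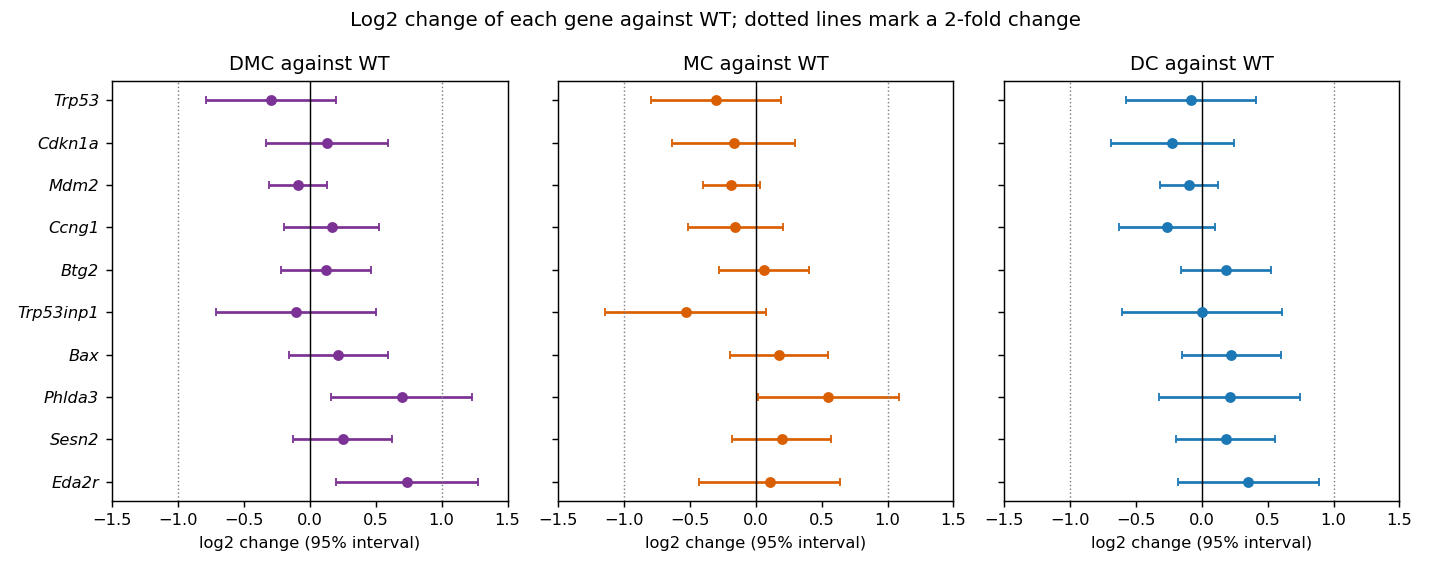
log2 change with its 95% interval (x axis) for each of the 10 p53 genes (rows) in DMC, MC and DC against WT (panels, left to right), from the limma fit over 16 libraries, with dotted lines at a 2-fold change. Phlda3 and Eda2r in DMC against WT have estimates of 0.70 and 0.74, with intervals above 0, and no gene passed at an adjusted p under 0.05.

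Trp53 (chr11, 69580359 to 69591873, plus strand, GRCm38) was measured at 158, 201, 138 and 143 normalized counts in DMC libraries and at 152, 140, 145 and 200 in MC libraries. The values were 183, 176, 227 and 157 in DC libraries and 166, 257, 280 and 120 in WT libraries. The WT libraries spanned the range of all 16, with the lowest and the highest value both among them. The log2 changes against WT were -0.30 in DMC (95% interval -0.79 to 0.20, limma adjusted p = 0.624), -0.30 in MC (adjusted p = 0.621) and -0.08 in DC (adjusted p = 0.931). WT replicates 2 and 3, at 257 and 280, also had the highest mean log2 levels of 8 B and T cell markers, 8.44 and 9.25, while the other WT libraries had 4.57 and 6.47. The 8 include Ptprc, which is not confined to B and T cells. The summed markers, none at 0 in any library, ran from 856 to 4185 normalized counts in DMC, 1051 to 2487 in MC, 984 to 3077 in DC and 568 to 10115 in WT. The part of those cells in the Trp53 level was not tested. Without WT replicates 2 and 3 the log2 change against WT was 0.17 in DMC, 0.16 in MC and 0.38 in DC, above 0 where the full set gave values below 0, and none passed.

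Mdm2, the ubiquitin ligase that degrades p53 (chr10, 117688875 to 117710758, minus strand), was the steadiest of the 10. It was measured at 903, 752, 681 and 653 normalized counts in DMC libraries and at 691, 684, 686 and 715 in MC libraries. The values were 684, 778, 700 and 800 in DC libraries and 808, 854, 787 and 712 in WT libraries. Its SD within groups was 0.13 on the log2 scale, at the 6.97th percentile of the genes tested, beside a median gene of 0.28. Between pairs of groups, the largest log2 change in size was -0.18 in MC against WT (95% interval -0.40 to 0.03, limma adjusted p = 0.483). The estimate in DMC against DC was 0.00 (interval -0.21 to 0.22, adjusted p = 0.994), and the interaction was 0.19 (interval -0.12 to 0.50). The changes allowed by the data were therefore narrowest for Mdm2: its intervals in all 6 comparisons between groups ran from -0.40 to 0.31.

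Cdkn1a encodes p21, the cyclin-dependent kinase inhibitor through which p53 arrests the cycle, and lies on chr17 at 29090976 to 29100727 (GRCm38), 4.81 Mb from the floxed Daxx gene. It was measured at 511, 547, 481 and 288 normalized counts in DMC libraries and at 354, 460, 337 and 308 in MC libraries. The values were 293, 363, 370 and 370 in DC libraries and 408, 589, 286 and 392 in WT libraries. Of the 4 DMC libraries, 3 lay above every MC and DC library and the other lay below all of them. The highest and the lowest of the 16 values were both in WT. The log2 change was 0.13 in DMC against WT (95% interval -0.33 to 0.59, limma adjusted p = 0.836), 0.30 in DMC against MC (adjusted p = 0.969) and 0.35 in DMC against DC (adjusted p = 0.517). In MC and DC against WT it was -0.17 (adjusted p = 0.797) and -0.22 (adjusted p = 0.753).

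Ccng1 encodes cyclin G1, an atypical cyclin among the most responsive p53 targets in mouse tissue (chr11, 40748552 to 40755311, minus strand). It was measured at 3343, 2682, 4185 and 3191 normalized counts in DMC libraries and at 2543, 2773, 2672 and 2620 in MC libraries. The values were 1908, 3056, 2098 and 2974 in DC libraries and 3306, 2759, 2340 and 3539 in WT libraries. The MC libraries lay within 1.09-fold of each other, and 3 of the 4 DMC libraries lay above every MC and DC library. The log2 change was 0.43 in DMC against DC (95% interval 0.07 to 0.79, limma adjusted p = 0.291) and 0.58 for the interaction (0.07 to 1.10, adjusted p = 0.561), and it was 0.17 in DMC against WT (adjusted p = 0.724). With library quality weights, which count the more variable libraries less, the change in DMC against DC was 0.19 (adjusted p = 0.337). The lowest Ccng1 value, 1908 in DC replicate 1, came from the library with the lowest acinar level. Summed acinar markers ran from 4589400 to 9112200 normalized counts in DMC, 4589200 to 8242200 in MC, 3680300 to 7867500 in DC and 6851400 to 13060000 in WT. The part of acinar content was not tested.

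Btg2 (chr1), an antiproliferative factor that also recruits mRNA deadenylases, averaged 1113 ± 257 normalized counts in DMC, 1053 ± 74.3 in MC, 1158 ± 240 in DC and 1012 ± 149 in WT libraries (SD, n = 4 each). The group means differed by less than the spread within DMC or DC, and the largest log2 change was 0.18 in DC against WT (95% interval -0.16 to 0.52, limma adjusted p = 0.714).

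**Figure D2:**
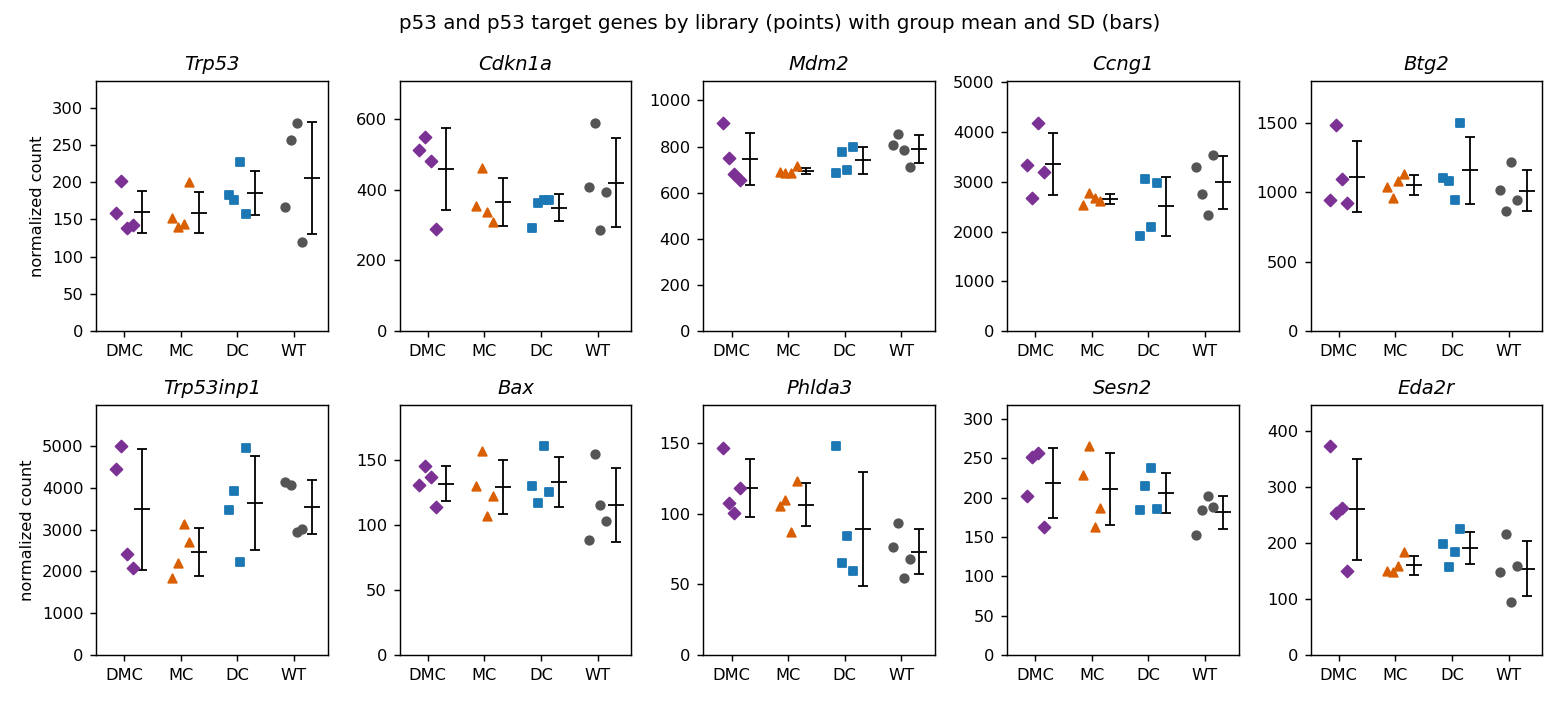
Normalized count (y axis, linear, from 0, own scale in each panel) of each of the 10 p53 genes in the 16 libraries, with DMC, MC, DC and WT from left to right; points are mice and bars are group means with SD. The 4 DMC points of Phlda3, 101 to 147, lie above the 4 WT points, 54.7 to 93.1, and every other gene overlaps between every pair of groups.

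Phlda3, a p53 target that blocks the membrane recruitment of Akt and is known as a suppressor of islet tumours (chr1, 135766119 to 135769136, plus strand), gave the largest Men1 effect of the 10. It was measured at 147, 108, 101 and 118 normalized counts in DMC libraries and at 105, 110, 86.9 and 123 in MC libraries. The values were 148, 64.7, 84.3 and 59.4 in DC libraries and 76.0, 93.1, 54.7 and 68.1 in WT libraries. All 4 DMC libraries lay above all 4 WT libraries, as they did for 5.19% of all genes. Phlda3 was the only 1 of the 10 whose groups did not overlap in DMC against WT, where 8.21% of all genes did not overlap in either direction. In the other comparisons 0 of 10 were without overlap, where the share of all genes was 7.38% in MC against WT, 5.49% in DC against WT, 4.0% in DMC against MC, 6.35% in DMC against DC and 8.94% in MC against DC. In MC, 3 of the 4 libraries lay above every WT library, and in DC replicate 1 stood at 148 while the others lay at 59.4 to 84.3. The log2 change was 0.70 in DMC against WT (95% interval 0.16 to 1.23, limma adjusted p = 0.258), 0.55 in MC against WT (0.02 to 1.09, adjusted p = 0.375), and 0.21 in DC against WT (adjusted p = 0.800). The last turned to -0.06 without DC replicate 1 and to -0.17 with library quality weights. The Men1 effect was 0.52 ± 0.18 (SE, limma adjusted p = 0.144), and without DC replicate 1 it was 0.66 and passed (adjusted p = 0.0151). With those weights it was 0.66 (adjusted p = 0.0123), and the log2 change in DMC against DC was then 0.88 (adjusted p = 0.0105), against 0.49 unweighted (adjusted p = 0.423).

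DC replicate 1 also had the highest mean log2 level of the 16 libraries for 7 fibroblast and stellate cell markers, 12.3, where the other DC libraries had 11.2 to 11.7. For 5 macrophage markers it had 10.3, where the other DC libraries had 8.94 to 9.52, and its acinar level, 16.8, was the lowest. Over the groups, the summed fibroblast and stellate markers ran from 22814 to 38016 normalized counts in DMC, 29453 to 49267 in MC, 32967 to 65908 in DC and 22154 to 26260 in WT libraries. The summed macrophage markers ran from 3803 to 6156 in DMC, 3094 to 5437 in MC, 3027 to 7755 in DC and 2088 to 4532 in WT. Islet markers, 6 in number, followed Phlda3 only in part. In DC and in WT the highest and the lowest of both came from the same libraries. In MC the lowest Phlda3 value was in replicate 3, whose islet level exceeded those of most other MC libraries. In DMC the highest Phlda3 value was in replicate 1, and the highest islet level was in another library. The summed islet markers ran from 33813 to 155630 normalized counts in DMC, 17053 to 97262 in MC, 13419 to 93418 in DC and 10635 to 49130 in WT libraries. DC replicate 1 had an islet mean log2 level of 13.2, where the other DC libraries had 10.6 to 11.4. No marker of these 3 lists was at 0 in any library, and the part of these cells in the Phlda3 level was not tested.

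**Figure D3:**
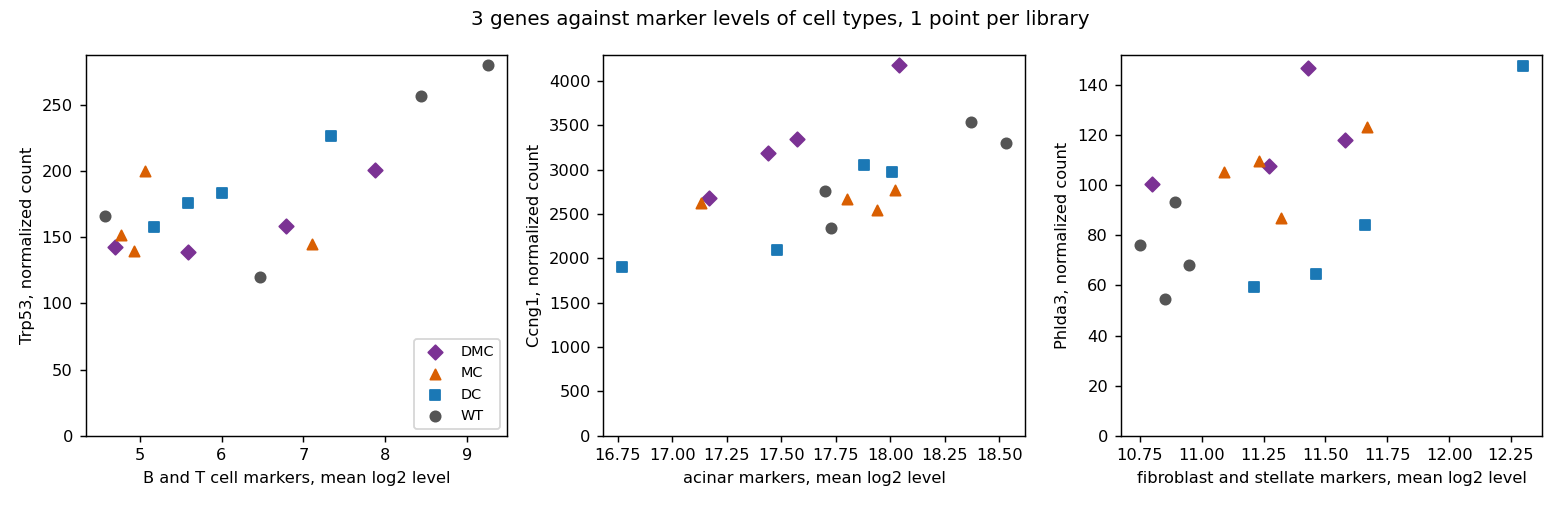
Normalized count (y axes) of Trp53, Ccng1 and Phlda3 against the mean log2 level of B and T cell, acinar, and fibroblast and stellate markers (x axes), with colours and shapes for DMC, MC, DC and WT and 1 point per mouse; the pairs were chosen after their values were seen. DC replicate 1 combines the highest Phlda3 value, 148, with the highest fibroblast and stellate level, and WT replicates 2 and 3 combine the highest Trp53 values with the highest B and T cell levels.

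Bax, the pore-forming protein of mitochondrial apoptosis (chr7), averaged 132.0 ± 13.2 normalized counts in DMC, 129 ± 20.9 in MC, 133 ± 19.0 in DC and 116 ± 28.4 in WT libraries (SD, n = 4 each). Its log2 change was 0.22 in DMC against WT (95% interval -0.16 to 0.59, limma adjusted p = 0.640) and 0.23 in DC against WT (adjusted p = 0.679). Trp53inp1, a stress protein that is switched on in injured pancreas and drives autophagy and cell death (chr4, 11156431 to 11174379, plus strand), was measured at 4460, 4997, 2421 and 2074 normalized counts in DMC libraries and at 1837, 2203, 3134 and 2705 in MC libraries. The values were 3465, 3930, 2233 and 4953 in DC libraries and 4151, 4074, 2942 and 3015 in WT libraries. The DMC libraries split into 2 high and 2 low values, and 3 of the 4 MC libraries lay below every WT library. The mean log2 level of 4 adipocyte markers was 9.73, 8.87, 7.44 and 6.01 in the same DMC libraries and 5.86, 6.11, 7.65 and 6.69 in the MC libraries. It was 9.27, 7.93, 8.39 and 7.53 in DC and 6.98, 7.49, 8.18 and 8.53 in WT libraries. The DMC libraries with high Trp53inp1 were those with the higher adipocyte levels, and the order of the MC libraries was the same for both. DC and WT did not follow this. In DC the highest Trp53inp1 value, 4953, came with the lowest adipocyte level, 7.53. In WT the 2 highest values, 4151 and 4074, came with the 2 lowest levels, 6.98 and 7.49. The summed adipocyte markers, none at 0 in any library, ran from 457 to 3875 normalized counts in DMC, 338 to 1066 in MC, 928 to 2693 in DC and 672 to 1775 in WT, and the part of fat cells in the Trp53inp1 level was not tested. The log2 change of Trp53inp1 was -0.11 in DMC against WT (limma adjusted p = 0.907). It was -0.53 in MC against WT (95% interval -1.14 to 0.08, adjusted p = 0.464) and -0.53 in MC against DC (adjusted p = 0.433).

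Eda2r is a receptor of the tumour necrosis factor family for ectodysplasin A2 and lies on the X chromosome at 97333840 to 97377216 (minus strand). It was measured at 372, 254, 263 and 151 normalized counts in DMC libraries and at 149, 148, 160 and 184 in MC libraries. The values were 198, 158, 183 and 225 in DC libraries and 149, 216, 94.6 and 158 in WT libraries. The 3 highest values of the 16 libraries were all in DMC, and the other DMC library lay among the MC and WT values. The highest, DMC replicate 1, and the lowest DMC value, in replicate 4, came from the DMC libraries with the highest and lowest adipocyte levels, 9.73 and 6.01. DC and WT did not follow this. In DC the highest Eda2r value, 225, came with the lowest adipocyte level, 7.53. In WT the lowest value, 94.6, came with a level of 8.18, where WT replicate 1 had 6.98. The part of fat cells was not tested. The log2 change was 0.74 in DMC against WT (95% interval 0.20 to 1.27, limma adjusted p = 0.224), 0.63 in DMC against MC (0.09 to 1.17, adjusted p = 0.795) and 0.38 in DMC against DC (adjusted p = 0.552). The Daxx effect was 0.49 (0.11 to 0.87, adjusted p = 0.391), and with library quality weights the change in DMC against DC was 0.74 and passed (adjusted p = 0.0490). Ddx3y, a gene of the Y chromosome, exceeded 100 normalized counts in 2 DMC, 2 MC, 1 DC and 2 WT libraries, so every group mixed libraries with and without it, and the part of sex in the Eda2r level was not tested.

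Sesn2, a sestrin that restrains mTORC1 and is induced by p53 and by nutrient stress (chr4), averaged 218 ± 44.7 normalized counts in DMC, 211 ± 45.4 in MC, 206 ± 25.6 in DC and 181 ± 20.9 in WT libraries (SD, n = 4 each). Its log2 change was 0.25 in DMC (95% interval -0.12 to 0.62, limma adjusted p = 0.587), 0.20 in MC (adjusted p = 0.684) and 0.18 in DC (adjusted p = 0.749) against WT. An annotated gene on the same strand overlaps 6089 bases of Sesn2, another overlaps 915 bases of Bax, and the last, on the opposite strand, overlaps 1046 bases of Cdkn1a. None of the 3 is among the genes of the table, and how the counting split shared reads is not given in the sources used here.

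Across the wider p53 lists 2 genes passed, Sesn1 and Ddit4, each in the same comparisons, MC against DC and the Men1 effect. Their products are both known to restrain mTORC1. Sesn1, a p53-induced sestrin related to Sesn2, fell by 1.52 ± 0.35 on the log2 scale in MC against DC (SE, limma adjusted p = 0.0433) and by 1.15 ± 0.25 in the Men1 effect (adjusted p = 0.0191). It was measured at 1730, 2052, 649 and 970 normalized counts in DMC libraries and at 500, 684, 1310 and 752 in MC libraries. The values were 1422, 2738, 1767 and 3344 in DC libraries and 2176, 1862, 2256 and 2064 in WT libraries. Every MC library lay below every DC and every WT library, and the DMC libraries overlapped all 3 other groups. The adipocyte levels given for Trp53inp1 moved with Sesn1 in MC and DMC but not in DC and WT. MC replicate 1 was lowest and MC replicate 3 highest of the MC libraries in both. Both DMC libraries with high Sesn1 had the higher adipocyte levels. In DC the order was reversed, with the highest Sesn1 value, 3344, in the library with the lowest adipocyte level, 7.53. In WT the orders differed. The part of fat cells in the Sesn1 level was not tested. In MC against WT the log2 change of Sesn1 was -1.45 (adjusted p = 0.0616) and in DMC against WT it was -0.77 (adjusted p = 0.380). The MC against DC call of Sesn1 was lost in edgeR (adjusted p = 0.0530) and in 10 of the 16 fits that left out 1 library. Those libraries were WT replicates 1, 2 and 4, DC replicates 2, 3 and 4, MC replicates 1, 2 and 4, and DMC replicate 4, at limma adjusted p of 0.0504 to 0.139. The Men1 effect on Sesn1 was lost without DC replicate 2 (adjusted p = 0.0511).

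Ddit4 encodes REDD1, a stress-induced inhibitor of mTORC1 that p53, glucocorticoids and low oxygen can each raise. It fell by 1.05 ± 0.19 in MC against DC (SE, limma adjusted p = 0.0144) and by 0.70 ± 0.13 in the Men1 effect (adjusted p = 0.00879). Ddit4 was measured at 488, 685, 584 and 469 normalized counts in DMC libraries and at 299, 405, 619 and 501 in MC libraries. The values were 1008, 842, 752 and 1086 in DC libraries and 778, 676, 688 and 680 in WT libraries. All MC and DMC libraries lay below all DC libraries. Among the MC libraries Ddit4, like the adipocyte level, was lowest in replicate 1 and highest in replicate 3. The other groups did not follow this throughout. DMC replicate 4 was lowest in both, but the highest of each came from different DMC libraries. The highest Ddit4 values in DC, 1086, and in WT, 778, came with the lowest adipocyte levels of those groups, 7.53 and 6.98. The part of fat cells was not tested. The log2 change of Ddit4 was -0.36 in DMC against WT (adjusted p = 0.454), -0.68 in MC against WT (adjusted p = 0.115) and 0.37 in DC against WT (adjusted p = 0.474). These 2 genes were the calls among 13 p53 targets in DNA repair and metabolism, beside 0.781% of all genes called lower in MC against DC and 1.15% in the Men1 effect. That list was chosen with earlier results of these data known, so the shares are a description and not a test of it. The median log2 change over the 13 was -0.03 in MC against DC and 0.01 in the Men1 effect. Sesn2 had log2 changes of 0.02 in MC against DC (95% interval -0.36 to 0.39) and 0.13 in the Men1 effect (-0.13 to 0.40). Leaving out DC replicate 4 (adjusted p = 0.0554) or MC replicate 2 (0.0518) lost the Ddit4 call in MC against DC.

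**Figure D4:**
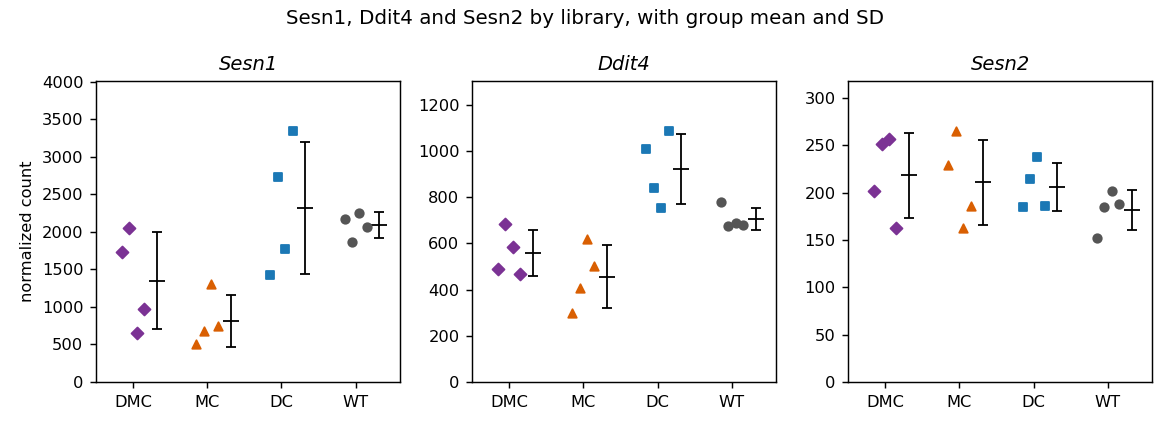
Normalized count (y axis, linear, from 0) of Sesn1, Ddit4 and Sesn2 in each library of DMC, MC, DC and WT, from left to right; points are mice and bars are group means with SD. MC libraries of Sesn1, 500 to 1310, and of Ddit4, 299 to 619, lie below those of DC, while Sesn2 ranges overlap.

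The other lists, apart from the gene families that include Sesn1, held no call in any comparison by limma. Of the p53 effectors of arrest and growth, 10 of 11 were tested. Plk2, a polo-like kinase, averaged 1257 ± 624 normalized counts in DMC, 1657 ± 399 in MC, 1198 ± 402 in DC and 1164 ± 681 in WT libraries (SD, n = 4 each). Btg1, a relative of Btg2, averaged 1090 ± 193 in DMC, 968 ± 257 in MC, 850.2 ± 89.4 in DC and 1267 ± 396 in WT. Of the targets in cell death, 12 of 13 were tested. Perp, a desmosomal protein, averaged 929.7 ± 126 in DMC, 939 ± 96.8 in MC, 764 ± 293 in DC and 827 ± 209 in WT. Ei24, an endoplasmic reticulum protein, averaged 818 ± 140 in DMC, 789.9 ± 47.5 in MC, 646 ± 45.2 in DC and 708 ± 81.8 in WT. At an unadjusted limma p under 0.05, the arrest and growth list held 0 of 10 genes in DMC against MC (5.57% of all genes) and in the Daxx effect (9.23%). It held 2 in DMC against WT (12.5%), 2 in DC against WT (11.7%), 1 in MC against WT (12.7%) and 1 in MC against DC (13.7%). Its highest counts were 4 in DMC against DC (13.2% of all genes) and 4 in the Men1 effect (16.6%), followed by 3 in the interaction (8.13%). The death list held 2 of 12 in the interaction (8.13% of all genes). It held 0 or 1 in every other comparison, where the share of all genes was 5.57% to 16.6%.

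Among the regulators of p53, 14 of 15 were tested and none passed. Usp7, the deubiquitinase that acts on both p53 and Mdm2, averaged 1894 ± 180 normalized counts in DMC, 1806 ± 130 in MC, 1922 ± 129 in DC and 2078 ± 118 in WT libraries (SD, n = 4 each). Mdm4, the inhibitory partner of Mdm2, averaged 1582 ± 308 in DMC, 1573 ± 134 in MC, 1811 ± 173 in DC and 1721 ± 228 in WT. The other CDK inhibitors were all 6 tested and none passed. Cdkn1b (p27) averaged 553 ± 89.1 in DMC, 594 ± 53.6 in MC, 571 ± 53.9 in DC and 601 ± 78.6 in WT. Cdkn1c (p57) averaged 152 ± 61.7 in DMC, 147 ± 24.4 in MC, 242 ± 69.7 in DC and 133 ± 29.8 in WT. The 12 cell cycle genes that p21 represses through the DREAM complex had positive log2 changes in 12 of 12 cases in DMC against DC (median 0.50, all genes 0.00), 12 of 12 in MC against DC (0.33, all genes 0.00) and 11 of 12 in DMC against WT (0.29, all genes -0.02). They were positive in 6 of 12 in MC against WT (median 0.03), 10 of 12 in DMC against MC (0.23) and 1 of 12 in DC against WT (-0.26, all genes -0.02), and none of the 12 passed in any comparison. Positive changes numbered 11 in the Men1 effect (median 0.35), 11 in the interaction (0.45) and 7 in the Daxx effect (0.01). Over these comparisons, 47.06% to 52.07% of all genes were positive. At an unadjusted limma p under 0.05 the list held 4 in DMC against DC. It held 2 in the Men1 effect, 1 in the interaction and 0 elsewhere. The comparisons against DC share the DC libraries. Whether the 12 genes vary independently was not tested, so the sign counts are a description. Mki67, the proliferation antigen of that list, averaged 2355 ± 689 in DMC, 2117 ± 819 in MC, 1808 ± 419 in DC and 2166 ± 619 in WT. Of 16 tested members of the same gene families, Sesn1 alone passed.

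Per kilobase of exon, the genes ran from Ccng1 at a mean of 818 normalized counts per kb, above 97.5% of the genes tested, through Trp53inp1 (508), Btg2 (395), Mdm2 (146), Cdkn1a (112), Bax (80.9), Phlda3 (62.0), Sesn2 (58.8) and Trp53 (43.9) to Eda2r at 32.5, above 37.0%. Between neighbours in this order, the ranges over the 16 libraries overlapped except between Btg2 and Mdm2. Phlda3 exceeded Sesn2 in 8 of 16 libraries, so those genes are not ordered.

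The levels of the members did not all vary together from mouse to mouse. After group means were removed, the 45 pairwise correlations of log2 levels over the 16 libraries ran from -0.70, between Trp53 and Ccng1, to 0.71, with a median of 0.09 and 30 above 0. Cdkn1a, over all 16 libraries and with no means removed, was most like Eda2r among the members (Pearson r 0.63, 26th of 14219 genes). It had r of 0.47 with Mdm2, 0.44 with Bax, 0.41 with Ccng1, 0.41 with Sesn2 and 0.40 with Trp53inp1, and less with Phlda3 (0.14), Trp53 (-0.01) and Btg2 (-0.10). Mdm2 was most like Trp53inp1 (0.75, 15th of 14219 genes). Outside the members, genes averaging at least 50 normalized counts were ranked if they had an established symbol, not a Gm, Rik or clone number. Of these, the most like Cdkn1a were Cyb5r4 (0.79), Klhl21 (0.77), Rab40c (0.75), Dglucy (0.73) and Ddi2 (0.71). Those most like Mdm2 were Sec11a (0.81), Abhd17b (0.80), Slc25a25 (0.80), Rpl7l1 (0.80) and Mak16 (0.79). These values describe 16 points that share library depth, cell makeup and genotype group.

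**Figure D5:**
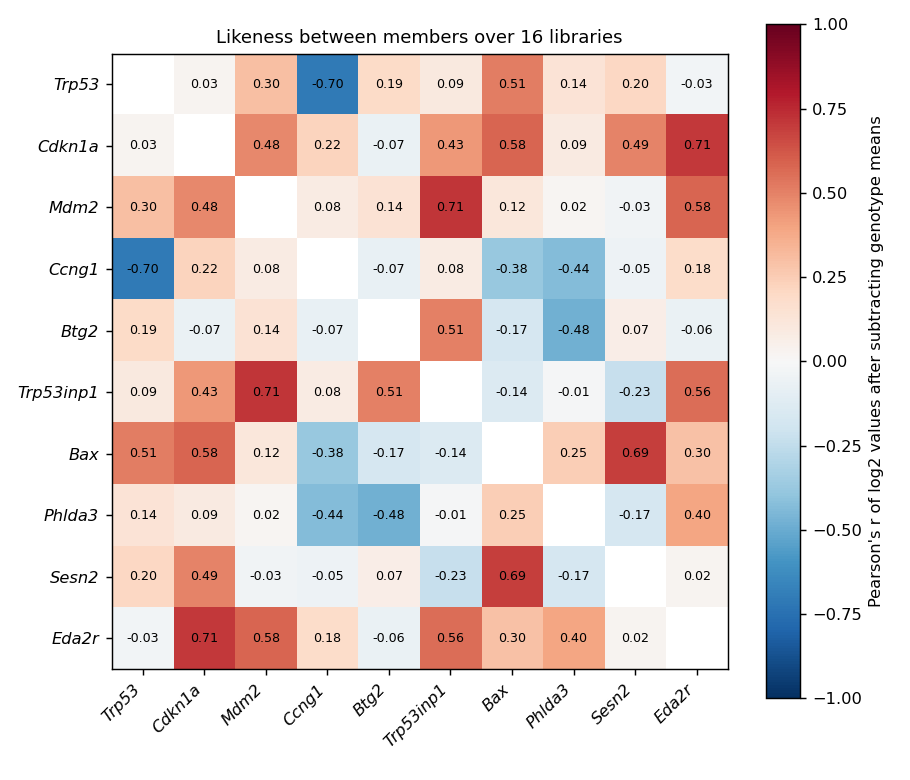
Pearson correlation of log2 levels, after genotype means were subtracted, between each pair of the 10 p53 genes over the 16 libraries, drawn as coloured cells with both axes listing the genes. The highest values are 0.71, for Mdm2 with Trp53inp1 and for Cdkn1a with Eda2r, and the lowest is -0.70, for Trp53 with Ccng1.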

How the data were processed

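Total RNA libraries were strand-specific (TruSeq Stranded Total RNA), per the labels' protocols. Per the submitters' processing notes, the authors used STAR 2.6.0b, the GRCm38 build and DESeq2. Not given in the sources used here were its version, the read counter and the annotation release. Gene counts divided by a size factor per library were deposited, a normalized count signal. All values (100%) were whole multiples of 1 step per library within 0.01 reads, so reads were recovered (size factors 0.566 to 1.63). A value of 0 allows up to 3 reads, 1.84 to 5.30 normalized counts, for counting error only. Coordinates and exon lengths came from GENCODE mouse release 21, in which 15146 of 15156 identifiers were found.

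The 14220 genes that reached 10 normalized counts in 4 or more libraries were tested, all 10 members among them. log2(normalized count + 1) was fitted with limma 3.58.1 (trend) in R 4.3.3, with 1 coefficient per genotype, two-sided tests and Benjamini-Hochberg adjustment within each of 9 comparisons, at 0.05. edgeR 4.0.16 (quasi-likelihood) and DESeq2 1.42.0 ran on recovered reads as alternatives. The other alternatives were the pseudocount (0.5, 5), the filter (none, or 50 in 4 libraries), TMM scaling, quantile normalization, robust moderation, library quality weights, a replicate block, only the compared groups in the fit, each library left out, and WT replicates 2 and 3 left out together. The tests were checked on simulated data. No library repeated another of its group within sampling noise (chi-square per degree of freedom 9.04 to 137.9). All 10 members, Daxx and Men1 are reported. Of each wider list, up to 4 genes that passed are named, and otherwise its 2 most abundant. The members and lists were chosen with earlier results of these data known.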

Additional observations from a re-analysis of the deposited data

Results flagged for a closer look

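Cdkn1a in DC replicate 1 was 292.6 normalized counts, whereas the other DC libraries lay between 362.5 and 370.3. The gap to the nearest library was 0.9 of the group's whole range, above Dixon's 95% critical value for 4 samples. It was the 1 case among 40 combinations of gene and group examined, where chance gives about 1 in 20. The same library had the lowest acinar marker level, 16.8, and the highest fibroblast and stellate marker level, 12.3, of all 16 libraries as mean log2 values, and their part in its Cdkn1a value was not tested. Leaving this library out kept the count of members that passed at 0 in every comparison except the Men1 effect, in which Phlda3 passed.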

How the results depend on the processing

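The count of the 10 members that passed stayed at 0 in all 9 comparisons under edgeR, DESeq2, other pseudocounts and filters, TMM and quantile scaling and robust moderation, and in the 6 comparisons between pairs of groups when only those groups were fitted. With library quality weights it was 2 in DMC against DC (Phlda3 and Eda2r) and 1 in the Men1 effect (Phlda3). When each library was left out in turn it ranged from 0 to 1 in the Men1 effect, where the 1 came without DC replicate 1, and was 0 elsewhere. No value that passed reversed its direction under any setting.

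Without WT replicates 2 and 3 together, Sesn1 lost its call in MC against DC (adjusted p = 0.0533) and in the Men1 effect (0.0586). Daxx in DMC against WT passed with quality weights (log2 change -0.62, adjusted p = 0.0432), was -0.24 (adjusted p = 0.471) without those WT libraries, and in DC against WT was then 0.07. Of the 90 log2 changes of members, none of which passed, 39 changed sign under at least 1 setting. Of the 36 at least 0.2 in size 5 did so: Trp53 in DMC and in MC against WT, and Phlda3, Bax (-0.05 with quality weights) and Ccng1 (0.01) in DC against WT.

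Whether the replicate numbers pair the mice is not given in the sources used here. Same-numbered libraries of different groups had deviations correlated from -0.37 to 0.38 (median -0.03), with 11 of 24 above 0.1. For libraries with different numbers the range was -0.47 to 0.52 (median -0.01), with 26 of 72 above 0.1. With the replicate block, 0 members passed in every comparison, the Sesn1 call in MC against DC was lost (adjusted p = 0.0968), and the genes called were 46 in MC against WT, against 111 without the block, and 36 in DMC against WT, against 112. Over all genes DESeq2 called 331 in DMC against WT, 391 in MC against WT, 281 in DC against WT and 811 in the Men1 effect, against 112, 111, 3 and 430 by limma. Quality weights called 1655 in DMC against DC and 1395 in the Men1 effect, against 76 and 430. Without WT replicates 2 and 3, 43 genes passed in DMC against WT and 41 in DC against WT. The cause of these differences was not tested.

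With 4 mice a group, changes within the intervals given are not excluded, and no detection limit was computed. Whole tissue was measured, so changes confined to a minor cell type were not tested, and p53 protein was not measured.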
